A study of Mus musculus with 10 samples.

Results

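The genes described here are 10 of the 29868 genes of the expression table, the uroplakin genes Upk1a, Upk1b, Upk2, Upk3a and Upk3b, the surface protein gene Psca and the keratin genes Krt5, Krt7, Krt18 and Krt19. They were chosen by their role in the lining of the urinary tract after the values of Krt18 and Krt19 in each library were known, so their levels and differences are given as a description, and the fit over all genes is not read as a test of them. Urothelium is the layered lining of the renal pelvis, ureter and bladder. Its superficial umbrella cells carry plaques of uroplakins on the side facing the urine, in which uroplakin Ia pairs with uroplakin II and uroplakin Ib with uroplakin IIIa or IIIb. Keratins are the intermediate filament proteins of epithelia and assemble as pairs of a type I and a type II chain, such as keratin 18 with keratin 8 in simple epithelia. Keratin 5 marks the basal layer of layered epithelia.

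RNA sequencing gave the expression of 10 libraries from wild-type mice with myocardial infarction. The MI group held 5 of them and the Nav group, which also received navarixin, the other 5. Navarixin is an antagonist of the chemokine receptor CXCR2. In the study's general protocol the infarction was made by ligation of the left anterior descending coronary artery in male C57BL/6 mice aged 8 weeks. Navarixin was given by mouth at 1 mg/kg once daily for 4 weeks, and the MI group received saline. The day on which the sequenced tissue was taken is not stated, and the labels do not tie a library to a mouse, so the spread between libraries may be technical in part. The batch in the labels equals the group, so batch and treatment cannot be told apart.

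All libraries are labelled as heart, but defining genes of heart muscle were near 0. Of 10 cardiomyocyte genes, 9 were in the table, none passed the filter of at least 0.5 FPKM (fragments scaled by transcript length and by the library's mapped fragments) in at least 5 libraries, and the highest value in any library was 0.257 FPKM. Genes of the proximal tubule of the kidney were high in every library, with Kap at 42853 FPKM and the phosphate transporter Slc34a1 at 682 FPKM on average. Statements on the MI and Nav groups therefore hold for the libraries so labelled. The estimated depth was 16710000 to 20510000 fragments per library. Mitochondrially encoded genes made up 24.44 to 40.55% of the summed FPKM in the MI libraries and 25.98 to 45.41% in the Nav libraries.

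On mm10, 5 of the 10 genes lie on chromosome 15. These are Krt18 (102028180 to 102032027, plus strand), Krt7 (101411043 to 101430313, plus strand), Krt5 (101707070 to 101712898, minus strand), Psca (74714839 to 74717069, plus strand) and Upk3a (85017141 to 85022547, plus strand). Krt19 lies on chromosome 11 (100140810 to 100146120, minus strand), Upk1a on chromosome 7 (30603092 to 30612847, minus strand), Upk1b on chromosome 16 (38773184 to 38800328, minus strand), Upk2 on chromosome 9 (44452715 to 44454976, minus strand) and Upk3b on chromosome 5 (136038496 to 136046487, plus strand). RefSeq promoter windows on GRCm38.p6 were matched for 6 of the 10 genes. The sequence before the first annotated exon is shown for the 4 with at least 200 bases of it, a keratin of simple epithelia, a basal keratin and both uroplakin III genes, whose transcripts were high in the same libraries. The windows are chr15:102027966-102028179 on the plus strand for Krt18, chr15:101712906-101713155 on the minus strand for Krt5, chr15:85016891-85017140 on the plus strand for Upk3a and chr5:136038246-136038495 on the plus strand for Upk3b. Each is written 5′ to 3′ along its gene, and capitals mark motif matches.
Krt18: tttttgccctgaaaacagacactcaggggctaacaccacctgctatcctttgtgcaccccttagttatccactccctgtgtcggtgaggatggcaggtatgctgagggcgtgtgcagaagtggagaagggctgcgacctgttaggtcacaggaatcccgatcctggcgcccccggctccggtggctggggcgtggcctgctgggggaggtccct
Krt5: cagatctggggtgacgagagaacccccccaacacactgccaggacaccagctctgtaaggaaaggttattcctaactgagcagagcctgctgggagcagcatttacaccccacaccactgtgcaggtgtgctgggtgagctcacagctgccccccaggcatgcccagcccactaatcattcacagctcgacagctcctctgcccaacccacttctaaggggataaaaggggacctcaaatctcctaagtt
Upk3a: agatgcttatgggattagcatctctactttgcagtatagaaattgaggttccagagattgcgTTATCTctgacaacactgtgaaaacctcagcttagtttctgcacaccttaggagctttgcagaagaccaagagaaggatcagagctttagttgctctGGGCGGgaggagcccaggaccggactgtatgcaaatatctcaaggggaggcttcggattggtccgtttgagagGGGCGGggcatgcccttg
Upk3b: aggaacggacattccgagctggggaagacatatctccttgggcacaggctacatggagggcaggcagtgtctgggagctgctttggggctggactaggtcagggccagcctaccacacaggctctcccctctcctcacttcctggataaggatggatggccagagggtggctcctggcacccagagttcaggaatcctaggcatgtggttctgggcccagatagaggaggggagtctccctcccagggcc
The motifs searched, on both strands, were the GC box GGGCGG, the TATA box TATAAA, the AP-1 site TGANTCA, the Grainyhead site AACNGGTT and the GATA site AGATAA. In the Upk3a window the GC box was found at bases 160 to 165 and 233 to 238 and the GATA site, on the opposite strand, at bases 63 to 68, with no overlap between matches. None of the letters searched was in the Krt18, Krt5 or Upk3b window. Over 32851 promoters cut to 250 bases, the GC box was found in 32.7%, the TATA box in 12.4%, the AP-1 site in 6.75%, the Grainyhead site in 1.79% and the GATA site in 9.99%. At the 214 bases of the Krt18 window the shares were 27.6, 9.71, 5.95, 1.54 and 8.88%. A match is a run of letters and was not tested as a binding site.

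The uroplakin genes were all highest in Nav 1, Nav 4 and Nav 5 and lowest in Nav 2 and Nav 3. Upk1a, the tetraspanin uroplakin Ia, was at 3.99, 3.68, 2.62, 2.23 and 3.15 FPKM in MI 1 to MI 5 and at 21.3, 1.34, 0.703, 23.7 and 19.4 FPKM in Nav 1 to Nav 5. These values correspond to 59 to 102 estimated fragments in the MI libraries and to 20 to 598 in the Nav libraries. Its lowest value among Nav 1, Nav 4 and Nav 5 was 4.87 times the highest MI value. Its partner Upk2, uroplakin II, was at 1.73, 3.71, 3.46, 3.27 and 1.75 FPKM in MI 1 to MI 5 and at 15.0, 1.03, 0.544, 16.0 and 16.6 FPKM in Nav 1 to Nav 5. The 3 high Nav libraries again lay apart from the rest, by 4.05 times the highest MI value, and Nav 3, at 12 estimated fragments, was the lowest of all.

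Upk3a, uroplakin IIIa, was the most abundant uroplakin gene per transcript length. It was at 7.06, 5.58, 6.12, 3.41 and 3.23 FPKM in MI 1 to MI 5 and at 38.4, 2.11, 1.83, 32.9 and 31.2 FPKM in Nav 1 to Nav 5. Upk1b, the tetraspanin that pairs with it, was at 4.24, 2.18, 2.96, 2.82 and 2.87 FPKM in MI 1 to MI 5 and at 20.03, 1.76, 0.8001, 17.5 and 20.2 FPKM in Nav 1 to Nav 5. For both genes the Nav group lay on either side of the MI group and no Nav library fell inside the MI range. Upk3b, uroplakin IIIb, which mesothelium also expresses, was the lowest of the uroplakin genes. It was at 1.21, 0.588, 0.584, 0.489 and 0.654 FPKM in MI 1 to MI 5 and at 2.01, 0.355, 0.290, 3.56 and 3.44 FPKM in Nav 1 to Nav 5. MI 1 stood above the other MI libraries, and the gap from the highest MI value to the lowest of the 3 high Nav libraries was 1.66 times.

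Psca, a glycosylphosphatidylinositol-anchored surface protein of umbrella cells, had the same order. It was at 14.4, 9.39, 8.85, 6.30 and 5.97 FPKM in MI 1 to MI 5 and at 42.8, 5.67, 5.57, 68.4 and 50.2 FPKM in Nav 1 to Nav 5. Nav 2 and Nav 3 were only just below MI 5, at 0.9496 times the lowest MI value for the higher of them. Krt5, the basal keratin, was at 1.78, 1.16, 1.06, 1.77 and 0.823 FPKM in MI 1 to MI 5 and at 6.99, 0.427, 0.639, 7.39 and 12.0 FPKM in Nav 1 to Nav 5. Genes of the superficial and of the basal layer were thus high in the same 3 libraries, although Krt5 rested on only 19 to 72 estimated fragments in the other 7.

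**Figure D1:**
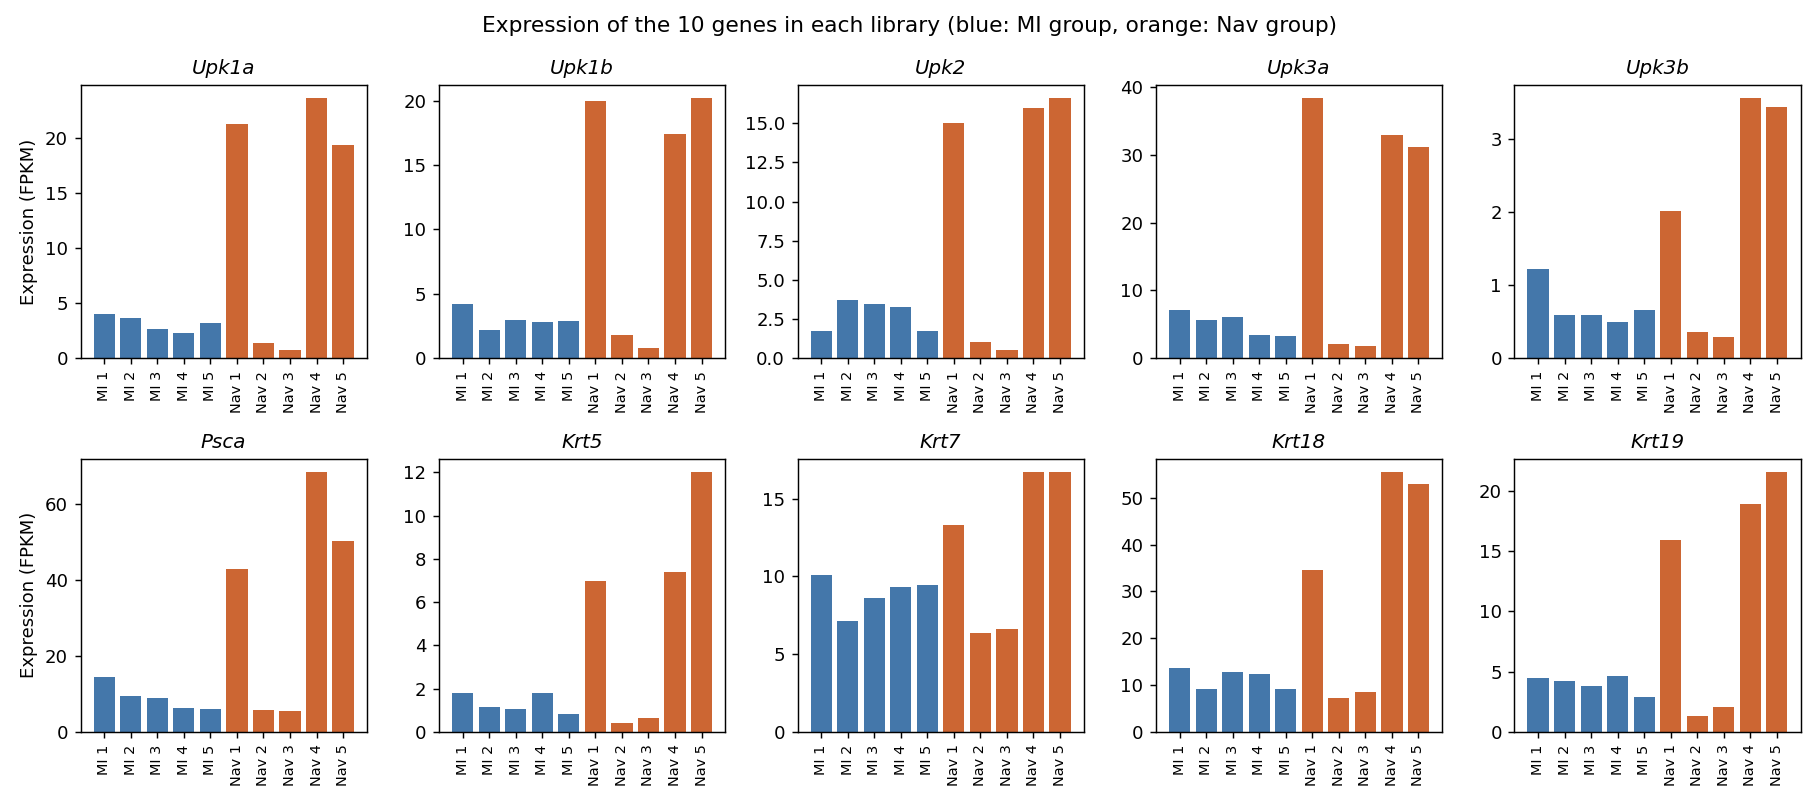
FPKM (y axis, a scale of its own for each gene) of the 10 genes, 1 bar per library, MI in blue and Nav in orange. For every gene, Nav 1, Nav 4 and Nav 5 lie above and Nav 2 and Nav 3 below all MI libraries.

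Among the keratins of simple epithelia, Krt18, the type I partner of keratin 8, was at 13.6, 9.06, 12.8, 12.3 and 9.15 FPKM in MI 1 to MI 5 and at 34.7, 7.20, 8.52, 55.6 and 53.0 FPKM in Nav 1 to Nav 5. Krt19, the smallest type I keratin, was at 4.47, 4.21, 3.82, 4.61 and 2.92 FPKM in MI 1 to MI 5 and at 15.9, 1.32, 2.02, 18.9 and 21.6 FPKM in Nav 1 to Nav 5. These are the values by which the genes were chosen, and nothing is read from their order. Krt7, a type II keratin of ducts and urothelium, had the narrowest range. It was at 10.1, 7.14, 8.65, 9.30 and 9.47 FPKM in MI 1 to MI 5 and at 13.3, 6.36, 6.64, 16.7 and 16.7 FPKM in Nav 1 to Nav 5. Its order of libraries was the same, but the 3 high libraries exceeded the highest MI value by only 1.32 times.

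The highest library exceeded the lowest by 33.7 times for Upk1a, 30.6 for Upk2, 28.2 for Krt5, 25.3 for Upk1b and 21.02 for Upk3a. The factor was 16.3 for Krt19, 12.3 for Upk3b and for Psca, 7.72 for Krt18 and 2.63 for Krt7. Krt8, the type II partner of keratin 18 and not one of the 10 genes, was at 48.0 to 57.9 FPKM in the MI libraries and at 71.0, 38.2, 42.4, 76.9 and 70.6 FPKM in Nav 1 to Nav 5, a factor of 2.01. The type II keratin Krt5 had a larger factor than the type I keratins Krt18 and Krt19. Its lowest value, 0.427 FPKM in Nav 2, rested on 19 estimated fragments. Krt10, another type I keratin, varied by a factor of only 1.64. The part of the keratin type in the range was not tested. The ratio of Krt18 to Krt8 was 0.158 to 0.258 in the MI libraries and 0.488, 0.188, 0.201, 0.723 and 0.751 in Nav 1 to Nav 5. The ratio of Krt19 to Krt7 was 0.309 to 0.589 in the MI libraries and 1.196, 0.208, 0.304, 1.13 and 1.29 in Nav 1 to Nav 5. Their numerators are the genes whose values were known when the set was chosen, so the order of these ratios is a description from which nothing is read either.

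**Figure D2:**
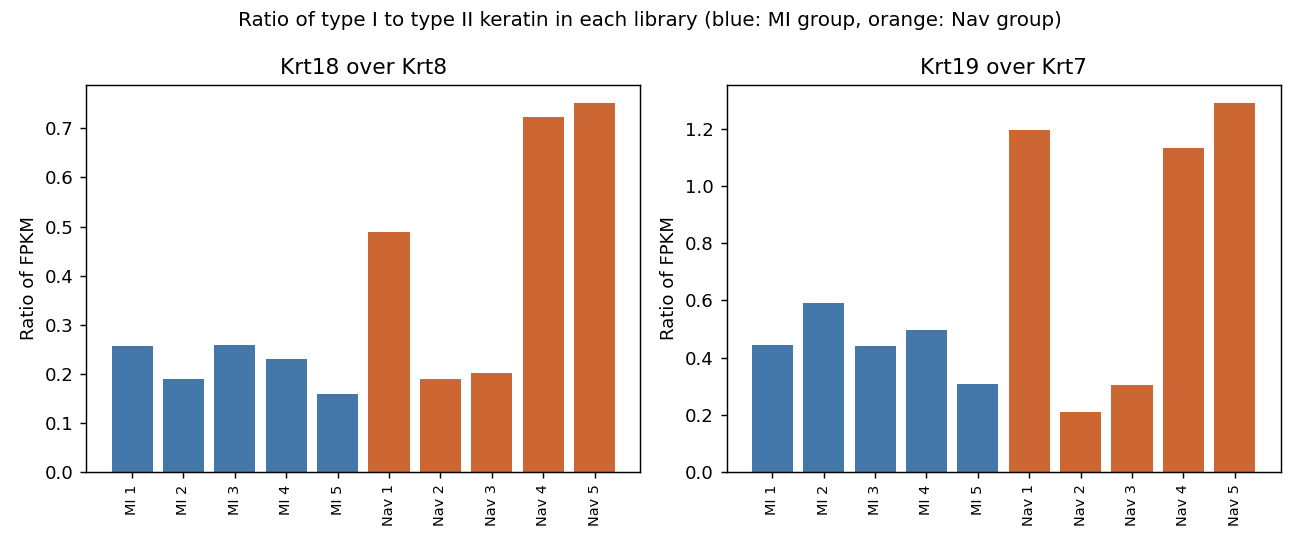
Ratio of FPKM of Krt18 to Krt8 (left) and of Krt19 to Krt7 (right), 1 bar per library, MI in blue and Nav in orange. Nav 1, Nav 4 and Nav 5 reach 0.488 to 0.751 on the left and 1.13 to 1.29 on the right, and the other 7 libraries stay at or under 0.258 and 0.589.

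The ratios between uroplakin partners moved less than their levels. Upk1a over Upk2 was 0.683 to 2.30 over the 10 libraries (median 1.29), a range of 3.37 times, and in the Nav libraries it was 1.17 to 1.48. Upk1b over Upk3a was 0.391 to 0.890 (median 0.566), a range of 2.28 times. Krt18 over Krt19 was 2.16 to 5.44, with the highest value in Nav 2, and Psca over Upk3a was 1.11 to 3.04, with the highest value in Nav 3. In the MI libraries the levels followed the order Krt18 (11.4 ± 2.13 FPKM, SD, n = 5), Psca (8.98 ± 3.38), Krt7 (8.92 ± 1.12), Upk3a (5.08 ± 1.69), Krt19 (4.01 ± 0.678), Upk1a (3.13 ± 0.725), Upk1b (3.02 ± 0.751), Upk2 (2.78 ± 0.966), Krt5 (1.32 ± 0.435) and Upk3b (0.706 ± 0.290). Neighbours in this order differed by less than the larger of their SDs, except Krt7 and Upk3a, Krt19 and Upk1a, Upk2 and Krt5, and Krt5 and Upk3b.

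In all 10 genes Nav 1, Nav 4 and Nav 5 were the 3 highest libraries, and 2.96% of the 13412 tested genes had this order. In all 10 genes Nav 2 and Nav 3 were also the lowest libraries, so that the 5 MI libraries lay between, an order found in 0.775% of tested genes. Because the genes were chosen with the values of Krt18 and Krt19 known, nothing is read from these shares. All 10 genes passed the filter of 0.5 FPKM, Krt5 with 9 and Upk3b with 7 libraries at or above it and the others with 10. MI 1 was the highest MI library in 8 of the 10, the exceptions being Krt19 (MI 4) and Upk2 (MI 2). In bulk samples, fewer cells of a type and less RNA per cell cannot be told apart.

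**Figure D3:**
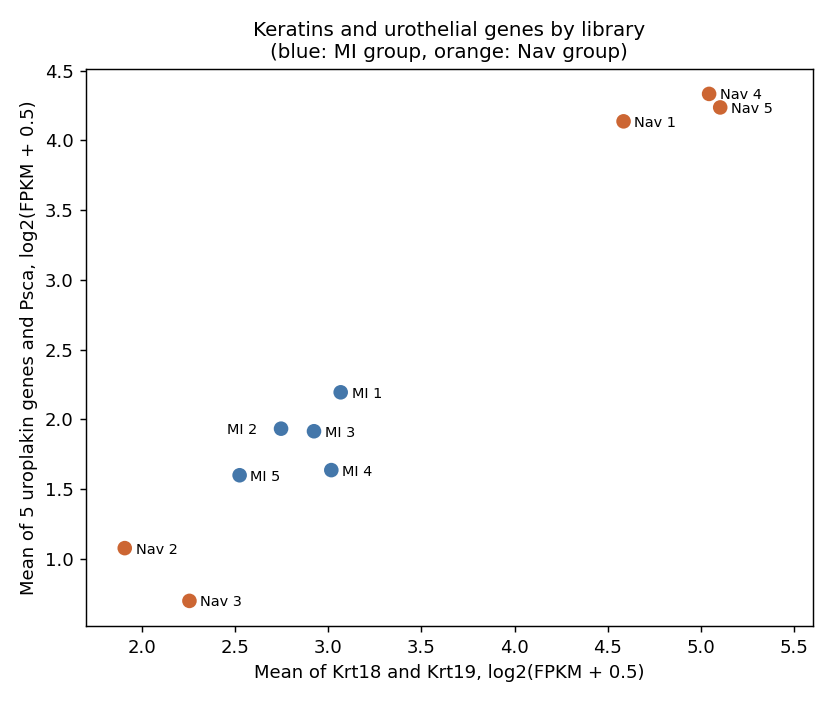
Mean log2(FPKM + 0.5) of Krt18 and Krt19 (x axis) against that of the 5 uroplakin genes and Psca (y axis), 1 point per library, MI in blue and Nav in orange. Nav 1, Nav 4 and Nav 5 sit at 4.59 to 5.10 on the x axis and 4.14 to 4.33 on the y axis, and the MI libraries between 2.52 and 3.07 and between 1.60 and 2.19.

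Between the groups, the Nav mean was higher than the MI mean for all 10 genes, but the SD of the Nav libraries exceeded the MI mean for every gene except Krt7. Upk3a was at 5.08 ± 1.69 FPKM in the MI and 21.3 ± 17.8 FPKM in the Nav libraries (SD, n = 5 each), a log2 fold change on the log2(FPKM + 0.5) scale of 1.16 with a standard error of 0.822. Psca had a log2 fold change of 1.31 (standard error 0.691), with a Nav mean of 34.5 ± 28.0 FPKM. For Krt18 it was 1.01 (standard error 0.549) and for Krt19 0.84 (standard error 0.678), with Nav means of 31.8 ± 23.3 and 12.0 ± 9.60 FPKM. Krt7 had the lowest, 0.29 (standard error 0.264), with a Nav mean of 11.9 ± 5.17 FPKM. The log2 fold changes of Upk1a, Upk1b, Upk2, Upk3b and Krt5 were 1.06, 1.10, 0.89, 0.71 and 1.09, with standard errors between 0.454 and 0.829. These values depended on single Nav libraries. That of Krt19 fell to 0.47 without Nav 5 and reached 1.37 without Nav 2, and that of Krt18 lay between 0.70 (without Nav 4) and 1.41 (without Nav 2). With 1 library left out, the lowest and highest log2 fold changes were 0.74 and 1.76 for Upk3a (without Nav 1 and Nav 3), 0.64 and 1.72 for Upk1a (Nav 4 and Nav 3), 0.73 and 1.73 for Upk1b (Nav 5 and Nav 3) and 0.51 and 1.52 for Upk2 (Nav 5 and Nav 3). They were 0.44 and 1.03 for Upk3b (Nav 4 and Nav 3), 0.90 and 1.78 for Psca (Nav 4 and Nav 3), 0.66 and 1.60 for Krt5 (Nav 5 and Nav 2) and 0.15 and 0.48 for Krt7 (Nav 5 and Nav 2). The median over the 10 genes was 1.04, beside -0.12 over all tested genes. None of the 10 was called in the limma fit over all genes, which asked for an adjusted p under 0.05 and a log2 fold change of 1 or more in size. In that fit 30 genes or 0.224% were called, 29 of them lower. The count was 197 without MI 4, 37 without Nav 4 and 1 to 3 without any other library, and with size factors it was 20, of which 15 were lower. None passed an adjusted p under 0.05 alone, which 0.365% of tested genes did, or an unadjusted p under 0.05, which 12.8% did, and nothing is read from these counts.

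The mitochondrial share was lower in the 3 high libraries than in the 2 low ones. It was 32.91, 25.98 and 27.48% in Nav 1, Nav 4 and Nav 5 and 45.41 and 38.86% in Nav 2 and Nav 3. In MI 1 to MI 5 it was 28.56, 28.20, 40.55, 36.26 and 24.44%, and MI 5 with the lowest share of all had 9.15 FPKM of Krt18. When the FPKM were rescaled to the sum without mitochondrial genes, all 10 genes kept Nav 1, Nav 4 and Nav 5 highest and Nav 2 and Nav 3 lowest. With median-of-ratios size factors, Nav 1, Nav 4 and Nav 5 stayed highest in all 10, but Nav 2 and Nav 3 were lowest in only 6. Over all tested genes, 2.54% had the 3 highest and 0.753% both orders when rescaled without mitochondrial genes. With size factors the shares were 1.91 and 0.254%. Because of how the 10 genes were chosen, nothing is read from these counts. The part of the mitochondrial share in the levels was not tested.

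**Figure D4:**
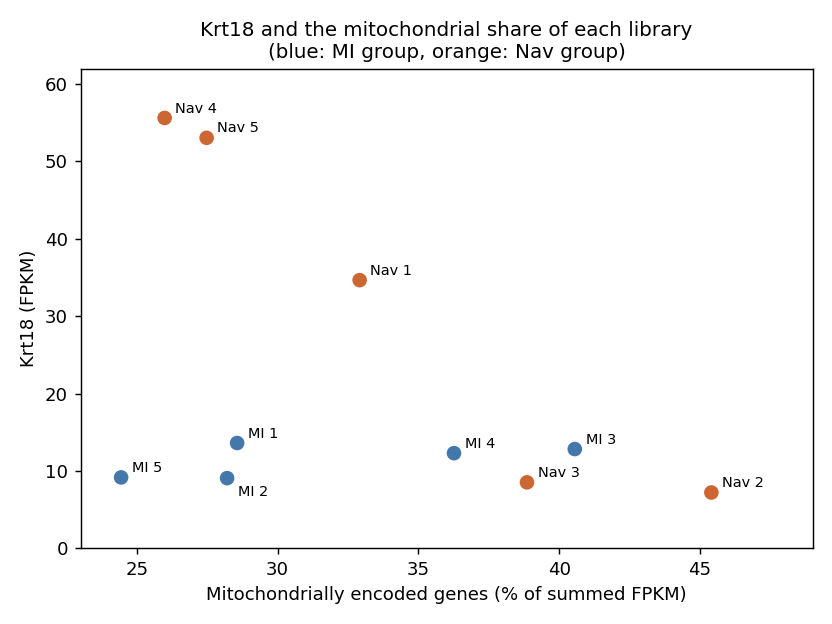
Share of mitochondrially encoded genes in the summed FPKM (x axis, %) against Krt18 in FPKM (y axis), 1 point per library, MI in blue and Nav in orange. Krt18 is at 34.7 to 55.6 FPKM in Nav 1, Nav 4 and Nav 5, while MI 1, MI 2 and MI 5 are at 9.06 to 13.6 FPKM with shares of 24.44 to 28.56%.

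The pattern of Krt18 and Krt19 was compared with that of every gene of at least 1 FPKM on average (11492 genes) by the Pearson correlation of log2(FPKM + 0.5) over the 10 libraries. The libraries fall into separate levels and share their depth, so r is a description and has no p. The other 8 of the 10 genes had r between 0.953 and 0.989 (median 0.963), beside a median of 0.30 over all compared genes, and all 8 were among the 23 genes with r of at least 0.95. The 10 most alike genes were Krt5 (r of 0.989), Foxq1, Ctse, Sfn, Cldn7, S100a6, Psca, Ly6d, Sprr1a and Upk3a (0.967). Sprr1a, a precursor of the cornified envelope, was at 9.89 to 14.1 FPKM in the MI libraries and at 58.7, 5.63, 3.33, 68.8 and 80.5 FPKM in Nav 1 to Nav 5. Ly6d, a small surface protein, was at 1.904 to 5.34 FPKM in the MI libraries and at 18.4, 1.06, 0.656, 24.8 and 36.6 FPKM in Nav 1 to Nav 5. The calcium-binding protein gene S100a6 was at 13.6 to 22.9 FPKM in the MI libraries and at 62.1, 8.83, 11.6, 127 and 112 FPKM in Nav 1 to Nav 5. Cldn7, a tight junction protein, differed less, with 4.75 to 4.92 FPKM in the MI libraries and 7.56, 4.11, 3.48, 9.82 and 9.19 FPKM in Nav 1 to Nav 5. The protease gene Ctse, the forkhead factor gene Foxq1 and Sfn, an epithelial 14-3-3 protein, reached 3.44 to 4.03, 3.35 to 3.76 and 7.71 to 10.3 FPKM in the 3 high libraries and at most 0.945, 1.81 and 4.49 FPKM in the MI libraries.

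Other genes of the urothelium were listed apart from the 10. Of 15, 13 were in the table and 6 passed the filter, and none of the 6 passed an adjusted p under 0.05 in the limma fit (1 at an unadjusted p under 0.05), with a median log2 fold change of 0.24. Nav 1, Nav 4 and Nav 5 were the highest libraries for 11 of the 13. Past the filter it was 5 of the 6, beside 2.96% of all tested genes, and the rest of the 11 were below the filter. Krt14, among the 5, reached 0.5 FPKM in only 5 libraries, Nav 1, Nav 4 and Nav 5 among them, so it passed only through the libraries counted here. The lists were also chosen with earlier results known, so nothing is read from this share. The summed level was 23.6 to 29.7 FPKM in the MI libraries, 44.9 to 55.1 FPKM in Nav 1, Nav 4 and Nav 5 and 14.02 to 15.1 FPKM in Nav 2 and Nav 3. The epithelial transcription factor gene Elf3 was at 6.39 to 10.5 FPKM in the MI libraries and at 11.3, 4.07, 5.70, 12.5 and 14.4 FPKM in Nav 1 to Nav 5. Snx31, a sorting nexin of umbrella cells, was at 4.10 to 7.77 FPKM in the MI libraries and at 9.82, 3.47, 3.15, 9.43 and 13.1 FPKM in Nav 1 to Nav 5. The receptor gene Fgfr3 did not have this order, with 6.62 ± 1.54 FPKM in the MI and 4.32 ± 1.59 FPKM in the Nav libraries (SD, n = 5 each). The following were named after their values were seen. Krt15, a basal keratin, was at 0.373 to 3.06 FPKM in the MI libraries and at 10.8, 0.998, 0.470, 5.89 and 6.46 FPKM in Nav 1 to Nav 5. The umbrella cell keratin gene Krt20 was at most 0.751 FPKM in the MI libraries and at 1.32, 1.72 and 2.32 FPKM in Nav 1, Nav 4 and Nav 5. Of 27 keratin genes in the table, 10 passed the filter. Nav 1, Nav 4 and Nav 5 were highest for 8 of them, all but Krt10 and Krt80, beside 2.96% of all tested genes. The 8 include Krt5, Krt7, Krt18 and Krt19 of the chosen genes, so nothing is read from this count.

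**Figure D5:**
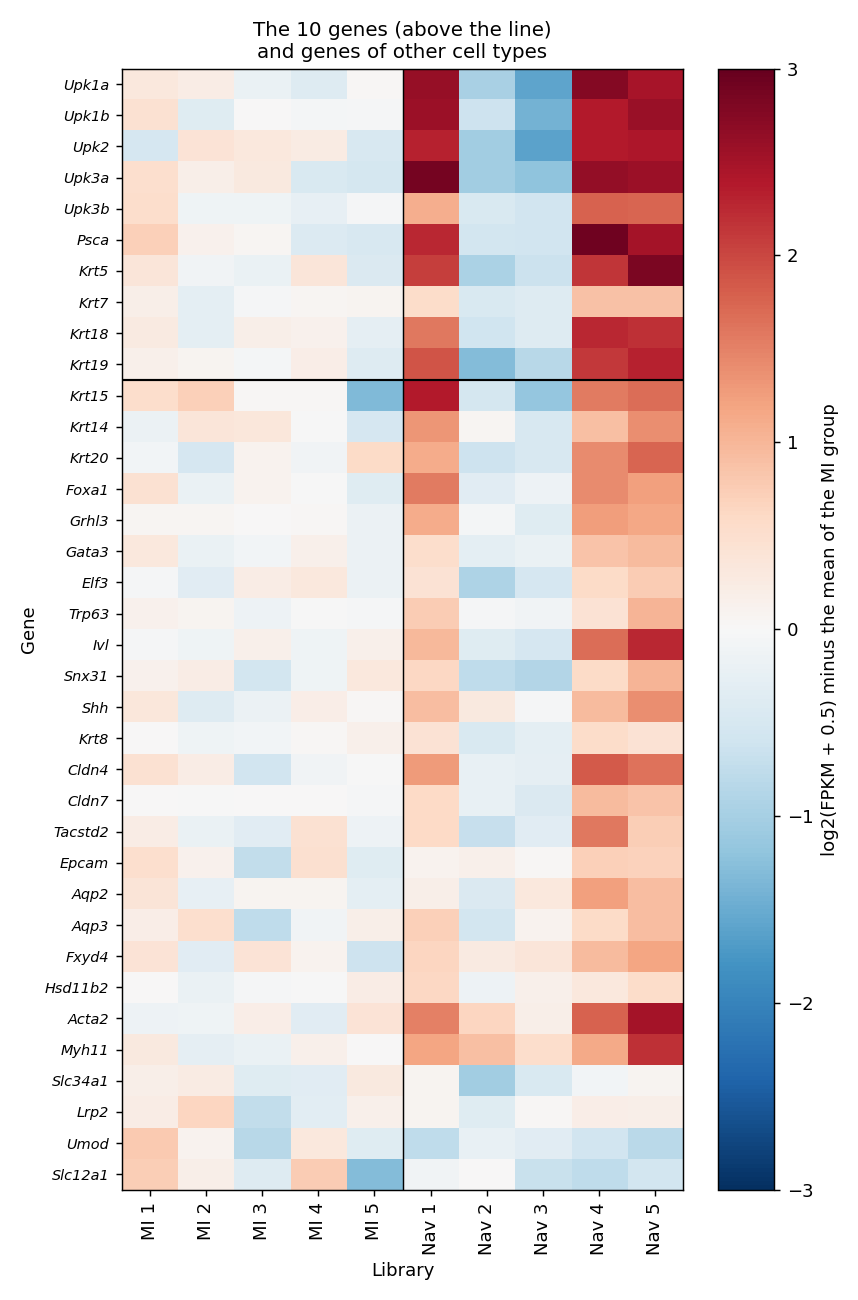
Level of each gene in each library as log2(FPKM + 0.5) minus the mean of the MI libraries, with colour as the difference. The rows are the 10 genes and a selection from the other lists. Not drawn are, among others, Fgfr3 and Upk3bl of the urothelium and Smtn, Des and Tagln of smooth muscle. Their highest libraries were not Nav 1, Nav 4 and Nav 5. The 10 genes are above the MI mean in Nav 1, Nav 4 and Nav 5 and below it in Nav 2 and Nav 3.

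Markers of other cell types were read in the same libraries, and none of the 75 tested genes of the 11 lists passed an adjusted p under 0.05 in the limma fit (11, or 14.7%, at an unadjusted p under 0.05, beside 12.8% of all tested genes). The lists were not alike in this, and 4 of these 11 genes were smooth muscle genes, of which 5 were tested. Because the lists were chosen with earlier results known, nothing is read from the counts of their genes. Among 16 other genes of simple epithelia, Nav 1, Nav 4 and Nav 5 were highest for 7, beside 2.96% of all tested genes. Their summed levels were 159 to 202 FPKM in the MI libraries, 230 to 282 FPKM in those 3 and 142 to 163 FPKM in Nav 2 and Nav 3. Spint2, a protease inhibitor, was at 32.1 ± 4.67 FPKM in the MI and 34.3 ± 7.57 FPKM in the Nav libraries, and E-cadherin (Cdh1) at 21.8 ± 4.32 and 25.7 ± 4.56 FPKM (SD, n = 5 each). Principal cells of the collecting duct, read by 10 genes, had summed levels of 161 to 204 FPKM in the MI libraries. The sums were 231 to 297 FPKM in the 3 high Nav libraries and 141 to 198 FPKM in Nav 2 and Nav 3. Of these 10 genes, 5 had the 3 libraries highest, beside 2.96% of all tested genes. The water channel gene Aqp2 was at 48.2 to 77.9 FPKM in the MI libraries and at 67.0, 44.1, 74.4, 141 and 113 FPKM in Nav 1 to Nav 5, so its order was not that of the uroplakins. Its relative Aqp3 averaged 33.0 FPKM and Hsd11b2, the enzyme that inactivates corticosterone, 42.4 FPKM. Both had Nav 1, Nav 4 and Nav 5 highest. For the 7 genes of intercalated cells the sums were 53.7 to 74.3 FPKM in the MI libraries. They were 84.2 to 90.8 FPKM in the 3 high Nav libraries and 63.0 to 66.2 FPKM in Nav 2 and Nav 3. The 3 high Nav libraries were highest for 2 of the 7, Atp6v1b1 and Slc26a4, beside 2.96% of all tested genes. Of the subunits of the proton pump, Atp6v1g3 was at 16.7 ± 2.97 and 25.2 ± 1.93 FPKM and Atp6v1b1 at 10.1 ± 1.56 and 9.78 ± 3.01 FPKM in the MI and the Nav libraries, and the anion exchanger pendrin (Slc26a4) was at 12.1 ± 2.76 and 14.2 ± 2.99 FPKM (SD, n = 5 each).

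Smooth muscle genes, which mark the wall beneath the urothelium and the vessels, did not move as 1 group. Of 7, Nav 1, Nav 4 and Nav 5 were highest for 4, and for 2 of the 5 past the filter, beside 2.96% of all tested genes. In the limma fit 4 of the 5 had an unadjusted p under 0.05, beside 12.8% of all tested genes. Acta2 and Myh11 of these were higher in the Nav group, and Smtn and Des were lower. The sums were 18.2 to 38.7 FPKM in the MI libraries. They were 43.0 to 82.1 FPKM in Nav 1, Nav 4 and Nav 5 and 18.0 to 22.2 FPKM in Nav 2 and Nav 3. Acta2, smooth muscle actin, was at 4.18 to 7.37 FPKM in the MI libraries and at 16.2, 8.70, 6.13, 19.6 and 33.0 FPKM in Nav 1 to Nav 5. Its limma log2 fold change was 1.32 with a standard error of 0.366 (adjusted p = 0.161). Actg2 and Cnn1, below the filter and named after their values were seen, were at most 0.202 and 0.428 FPKM in the MI libraries. In Nav 1 to Nav 5 Actg2 was at 2.41, 0.234, 0.0505, 1.93 and 4.47 FPKM and Cnn1 at 1.46, 0.514, 0.347, 2.58 and 3.75 FPKM. Myh11, smooth muscle myosin, named after its values were seen, had the lowest adjusted p of the 75 genes, 0.0703 from limma, with a log2 fold change of 1.18 (standard error 0.255), and Nav 2 and Nav 3 were above every MI library (1.68 and 1.18 against at most 0.933 FPKM). Smtn, smoothelin, was at 8.69 ± 1.53 FPKM in the MI and 5.82 ± 1.31 FPKM in the Nav libraries (SD, n = 5 each), with a limma log2 fold change of -0.55 and a standard error of 0.174 (adjusted p = 0.214). Des, desmin, also named after its values were seen, was at 2.18 ± 1.23 and 1.05 ± 0.553 FPKM, with a limma log2 fold change of -0.74 and a standard error of 0.335 (adjusted p = 0.383). Tagln, transgelin, was at 9.73 ± 4.52 and 13.9 ± 9.47 FPKM, and Nav 1, Nav 4 and Nav 5 were not the 3 highest libraries for these 3 genes.

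Of 13 genes of injured tubule cells, the 3 high Nav libraries were highest for 3, and for 2 of the 9 past the filter, beside 2.96% of all tested genes. These 2 were Spp1 and S100a6. The sums were 283 to 479 FPKM in the MI libraries. They were 569 to 712 FPKM in the 3 high Nav libraries and 330 to 384 FPKM in Nav 2 and Nav 3. Most of this sum was osteopontin (Spp1), at 301 ± 62.3 FPKM in the MI and 409 ± 114 FPKM in the Nav libraries (SD, n = 5 each), while Clu, clusterin, was at 33.5 ± 12.5 and 33.0 ± 13.4 FPKM. S100a6, also 1 of the 10 genes most like Krt18 and Krt19, was at 19.4 ± 3.48 and 64.3 ± 54.9 FPKM. Genes of the renal medulla had none of 9 with this order, and their sums were 301 to 833 FPKM in the MI libraries, 321 to 392 FPKM in the 3 high Nav libraries and 393 to 435 FPKM in Nav 2 and Nav 3. Most of these sums was uromodulin (Umod), of the loop of Henle, which averaged 343 FPKM. The salt transporter Slc12a1 of the same segment averaged 56.1 FPKM and the taurine transporter Slc6a6 17.8 FPKM. None of 10 proximal tubule genes had the order either, and Miox, an enzyme of inositol breakdown, was at 1007 ± 219 FPKM in the MI and 1086 ± 238 FPKM in the Nav libraries (SD, n = 5 each). Mesothelium, a further source of Upk3b, was read by 7 genes in the table, of which Lrrn4 and Bnc1 were at or near 0 and only Msln had the 3 libraries highest, at 2.17, 2.08 and 1.80 FPKM against 0.175 to 1.61 FPKM in the MI libraries. Their sums, mostly Gpm6a, were 30.1 to 67.8 FPKM in the MI libraries and 39.8 to 50.5 FPKM in the Nav libraries. Wt1 went the other way from Msln, at 0.530 to 0.614 FPKM in the MI libraries and 0.131 to 0.440 FPKM in the Nav libraries. Of 7 squamous genes in the table only Krt10 passed the filter, at 3.13 ± 0.441 and 3.12 ± 0.537 FPKM in the MI and the Nav group (SD, n = 5 each), and Krt4 and Lor were at most 0.5003 and 0.267 FPKM. The part of these cell types in the levels of the 10 genes was not tested.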

How the data were processed

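Groups and replicate numbers were taken from the sample labels, and doses and the surgical model from the study's methods. The authors deposited FPKM for 29868 genes in 10 libraries. Per the study's methods and the submitters' notes on processing, RNA with an integrity number above 7.0 was selected for poly(A), made into strand-marked libraries and sequenced from both ends. Reads were trimmed with cutadapt 1.9, aligned to mm10 with HISAT2 2.0.4 and quantified with StringTie 1.3.4d. The authors tested counts with DESeq2 and edgeR, which the FPKM do not allow here. For the gene annotation, the release was not given in the sources used here, and 99.67% of gene IDs were in GENCODE M21. The deposited FPKM do not add up to the same total in each library, so abundant genes lower the others. Depth in fragments was estimated from the step between low values of single-transcript genes.

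The 13412 genes that reached 0.5 FPKM in 5 or more libraries were fitted by group as log2(FPKM + 0.5) with limma 3.58.1 under R 4.3.3, using a mean-variance trend and a robust prior in eBayes. A call needed a p under 0.05 after Benjamini-Hochberg adjustment and a log2 fold change of 1 or more in size. The fit was checked on simulated data. No block or batch term was used. Figures were drawn with matplotlib 3.10.9.

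The 10 genes, the lists and the tests were chosen with earlier results of these data known. Named were the 10 genes, every list gene past an adjusted p under 0.05 or else up to 3 of highest mean in each list, and the 10 genes most like Krt18 and Krt19. Alternatives were other pseudocounts, filters, scalings and priors, a replicate block, each library left out and, added after seeing the data, the mitochondrial share as covariate.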

Additional observations from a re-analysis of the deposited data

Results flagged for a closer look

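Each of the 49 named genes was examined in both groups (98 groups of 5 libraries) for a library far from the others of its group, measured by the gap to its nearest neighbour over the whole range. Chance marks about 1 in 20 such groups, and 3 were marked. Upk3b was at 1.21 FPKM in MI 1, and the other 4 MI libraries were at 0.489 to 0.654 FPKM. Msln, a mesothelial gene, was at 1.61 FPKM in the same library, MI 1, and at most 0.562 FPKM in the other MI libraries. Myl3, a cardiac myosin light chain, was listed at 0 FPKM in MI 4 and was at most 0.177 FPKM in any MI library.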

How the results depend on the processing

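None of the 10 genes was called under any of 19 alternatives in limma. All 10 kept a higher Nav than MI level in each, with log2 fold changes from 0.15 (the lowest, Krt7) to 1.78 (the highest, Psca). In the FPKM as given, Nav 2 and Nav 3 lay below every MI library for all 10. The sign thus rests on Nav 1, Nav 4 and Nav 5, and no alternative left out more than 1 library. Nav 1, Nav 4 and Nav 5 remained the 3 highest libraries for all 10 under each scaling tried. With size factors, Nav 2 and Nav 3 were lowest in only 6. A filter cannot change the order of libraries within a gene, so the filters say nothing on it. The number of genes called over the whole table, 30, was 18 with a pseudocount of 1 and 0 of 29868 with no filter on low values (2809 at an unadjusted p under 0.05). It was 20 with size factors, 15 of them lower against 29 of 30, and 1 to 197 with a library left out. It was 197 without MI 4, 37 without Nav 4 and 1 to 3 without any other library. No list gene passed in the main fit, 3 passed with size factors (Myh11, Atp6v1g3 and Foxi1, adjusted p of 0.0461, 0.0482 and 0.0358 from limma), 2 with the mitochondrial share as covariate, chosen after seeing the data, and 0 to 1 with a library left out (Myh11 without MI 4). Over the alternatives the adjusted p of Myh11 was 0.0352 to 0.25. Over all tested genes the median log2 fold change was -0.12, and 0.03 with size factors. The median likeness of the other 8 genes to Krt18 and Krt19 was 0.909 by Spearman against 0.963 by Pearson correlation. The causes were not tested. Genes near 0.5 FPKM, such as Upk3b and Krt5 in Nav 2 and Nav 3, rest on 19 to 28 estimated fragments, which limits their precision.

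With the replicate number as a replicate block, 6 genes were called, none of them among the 10 or the lists. The numbers do not pair the libraries, since same-numbered libraries had correlated deviations of only -0.223 to 0.0461.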

Other observations

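Besides the 10 genes, 85 genes of at least 1 FPKM on average had Nav 1, Nav 4 and Nav 5 highest and Nav 2 and Nav 3 lowest. In 8 of them the lowest of the 3 high libraries was more than 2 times the highest MI library, and these were named after their values were seen. Apart from Sprr1a, Ctse, Ly6d and S100a6, they were the small proline-rich protein genes Sprr2a1, Sprr2a2 and Sprr2a3 and the carbonyl reductase gene Cbr2. Sprr2a1 was at 3.14 to 9.28 FPKM in the MI libraries and at 23.3, 2.02, 1.57, 31.2 and 31.2 FPKM in Nav 1 to Nav 5. The Sprr2a genes are near-identical copies that share reads, so their separate values are uncertain. Cbr2 was at 2.23 to 3.36 FPKM in the MI libraries and at 10.2, 1.37, 1.39, 8.08 and 11.05 FPKM in Nav 1 to Nav 5. Of all tested genes, 25 or 0.186% had Nav 1, Nav 4 and Nav 5 as the 3 lowest libraries.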
